A study of Homo sapiens with 3 samples.

Results

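The 52 genes described here encode proteins of the cytosolic ribosome and were taken from a list of gene symbols, 32 of the large subunit (RPL and RPLP names) and 20 of the small subunit (RPS names). They are 52 of 19974 protein-coding genes on chromosomes 1 to 22 and X of the RefSeq annotation of GRCh38, where all 52 symbols were found. A peak was assigned to a gene where its summit, the position of highest enrichment, lay inside the gene or within 1 kb of it. This gave 23 of 8271 peaks in replicate 2 and 26 of 11502 peaks in replicate 3. Peaks were assigned by position, with no use of their strength, but the list of 52 was itself drawn up with earlier results of these data known. It leaves out 35 ribosomal protein genes and paralogs of the same chromosomes, counted here as a separate list.

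The peaks came from ChIP-seq, in which chromatin is enriched with an antibody and its DNA sequenced, on Huh7 cells, an established line from human hepatocellular carcinoma. There were 2 ChIP libraries, replicate 2 and replicate 3, for which antibody G-5 against FOXM1 was used, and 1 input library made with no antibody, whose peaks were not analysed here. All 3 came from untreated cells of this line without any genetic change named in the labels. No library from cells lacking FOXM1 and none with another antibody was part of the series, so specificity for FOXM1 was not tested, and gene expression was not measured, so markers of liver cells were not checked. Whether the 2 ChIP libraries stem from separate cultures is not stated in the labels. Over all peaks, the median number of fragments at a summit, rebuilt from fold and p, was 26 in replicate 2 and 24.5 in replicate 3.

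Ribosomal proteins are made in the cytoplasm, carried into the nucleolus and assembled with ribosomal RNA into the small subunit, which decodes the messenger RNA, and the large subunit, which forms peptide bonds. Their messenger RNAs typically begin with a C followed by a run of pyrimidines, the terminal oligopyrimidine (TOP) tract, through which the mTOR pathway controls their translation. The genes are short, highly transcribed in growing cells and often host small nucleolar RNAs in their introns. FOXM1 belongs to the forkhead transcription factors and is best known as an activator of cell cycle genes.

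Of the 52 listed genes 26 carried a peak in at least 1 library. In detail, 13 had a peak in both libraries, 6 in replicate 2 alone, 7 in replicate 3 alone and 26 in neither. The share called in both was 25% (exact 95% interval 14.03 to 38.9), against 25.5% of all 19974 protein-coding genes. In at least 1 library it was 50% (35.8 to 64.2), against 42.9% of all genes. Counted per library, with the 13 genes in each count, 19 of 52 were called in replicate 2 (36.5%), against 30.3% of all genes, and 20 of 52 in replicate 3 (38.5%), against 38.1%. Each background share lay inside the interval of the listed genes (23.6 to 51.04 in replicate 2 and 25.3 to 52.98 in replicate 3). The result depended on the list: of the 35 ribosomal protein genes and paralogs outside it 1 was called in both libraries (2.86%), and both lists together gave 14 of 87 (16.1%). The intervals treat genes as independent draws and cover counting error only, and no test of the lists was run.

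Gene length bears on these shares. The listed genes had a median length of 5342.5 bp, against 24170.5 bp for all protein-coding genes, and a longer gene offers more room for a summit. Among the 9666 protein-coding genes no longer than the longest listed gene, RPS24 at 22944 bp, 20.5% were called in both libraries and 35.1% in at least 1. The first lay inside the interval of the listed genes and the second just below it (35.8 to 64.2). A count around gene starts leaves out the body of the gene. Annotated starts with strand were given for 44 of the 52 genes and for 15812 protein-coding genes. Of the 44, 8 had a summit of each library within 1 kb of a start (18.2%, exact 95% interval 8.19 to 32.7), against 22.4% of all genes. In at least 1 library the count was 17 of 44 (38.6%), against 39.1% of all genes, with 13 in replicate 2 (29.5%, against 27.1%) and 12 in replicate 3 (27.3%, against 34.4%).

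**Figure D1:**
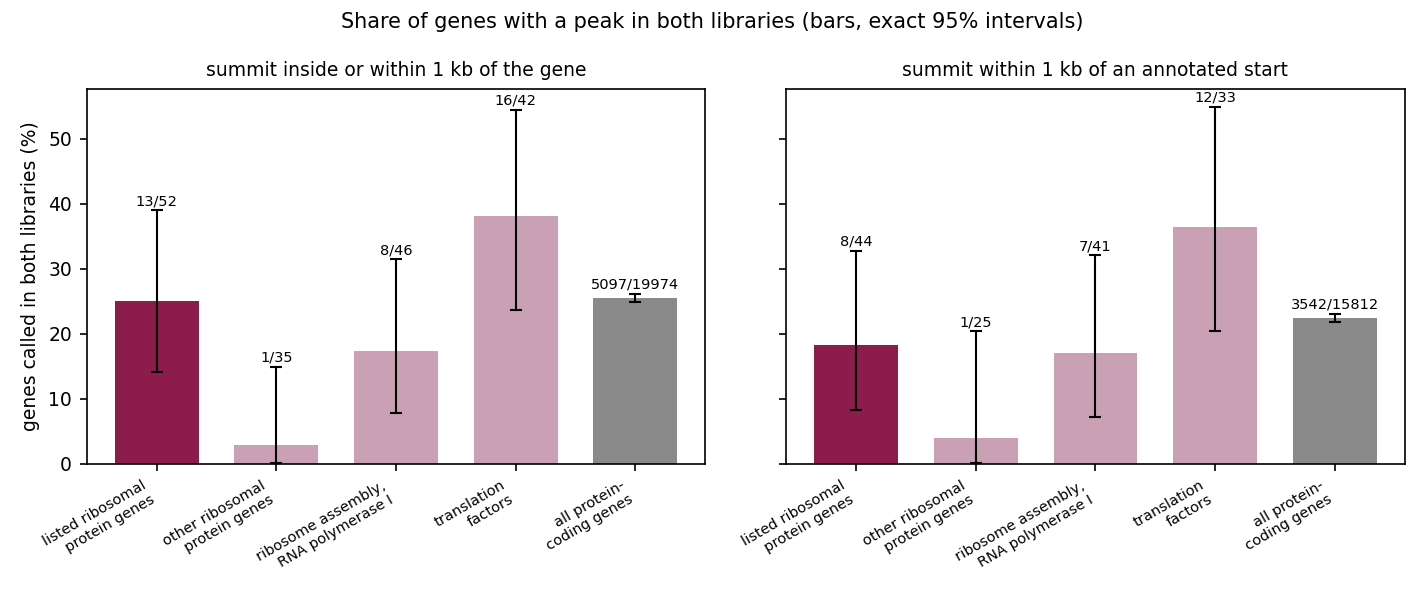
Share of genes called in both libraries (y axis, percent, bars with exact 95% intervals) for the listed ribosomal protein genes, 3 related lists and all protein-coding genes, by summits inside or within 1 kb of the gene (left) and within 1 kb of an annotated start (right). The listed genes stand at 25% and 18.2%, and the interval of each covers the share of all protein-coding genes, 25.5% and 22.4%.

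The promoters shown next belong to the 6 genes ranked highest by the smaller of their replicate folds, among those with a start within 1 kb of a summit of each library. They are RefSeq sequences of GRCh38.p14, running from 250 bases before an annotated start to 50 after it. Where a gene has several starts, one that begins with a TOP tract was taken. Capitals mark the start base together with any unbroken run of C and T that covers it. They are printed to show the letters at these starts and where the summits lie relative to them. For RPL13 and RPS19, with 3 and 2 annotated starts, the choice of start fixed the TOP letters in advance.
RPL13, GRCh38.p14 chr16:89560432-89560731, plus strand: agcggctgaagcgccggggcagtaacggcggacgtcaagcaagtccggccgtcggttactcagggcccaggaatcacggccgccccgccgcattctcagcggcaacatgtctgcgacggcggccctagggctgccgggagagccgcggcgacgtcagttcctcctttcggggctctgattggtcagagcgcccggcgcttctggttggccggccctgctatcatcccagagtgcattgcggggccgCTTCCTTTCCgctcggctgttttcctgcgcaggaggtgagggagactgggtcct
RPL26, GRCh38.p14 chr17:8383144-8383443, minus strand: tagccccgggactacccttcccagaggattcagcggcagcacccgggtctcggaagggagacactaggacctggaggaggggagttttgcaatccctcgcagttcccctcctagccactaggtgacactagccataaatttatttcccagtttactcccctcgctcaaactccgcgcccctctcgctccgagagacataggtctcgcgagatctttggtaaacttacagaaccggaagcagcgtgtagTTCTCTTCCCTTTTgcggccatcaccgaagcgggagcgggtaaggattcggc
RPS15, GRCh38.p14 chr19:1438146-1438445, plus strand: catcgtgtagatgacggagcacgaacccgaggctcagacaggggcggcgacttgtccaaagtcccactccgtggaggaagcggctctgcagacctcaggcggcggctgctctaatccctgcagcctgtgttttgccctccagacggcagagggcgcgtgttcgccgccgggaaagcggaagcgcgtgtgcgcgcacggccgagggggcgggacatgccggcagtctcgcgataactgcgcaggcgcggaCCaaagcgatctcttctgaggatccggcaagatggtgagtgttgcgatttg
RPS19, GRCh38.p14 chr19:41860005-41860304, plus strand: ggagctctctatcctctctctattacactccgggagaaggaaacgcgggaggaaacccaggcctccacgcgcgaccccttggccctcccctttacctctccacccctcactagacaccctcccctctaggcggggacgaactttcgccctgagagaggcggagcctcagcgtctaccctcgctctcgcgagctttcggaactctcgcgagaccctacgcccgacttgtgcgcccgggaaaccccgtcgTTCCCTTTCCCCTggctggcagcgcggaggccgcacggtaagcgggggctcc
RPL10A, GRCh38.p14 chr6:35468151-35468450, plus strand: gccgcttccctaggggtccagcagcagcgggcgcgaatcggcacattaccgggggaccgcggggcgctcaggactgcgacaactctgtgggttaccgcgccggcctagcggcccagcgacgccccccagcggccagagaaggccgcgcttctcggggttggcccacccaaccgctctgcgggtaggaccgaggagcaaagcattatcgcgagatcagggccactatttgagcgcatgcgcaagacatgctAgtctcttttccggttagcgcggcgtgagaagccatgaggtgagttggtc
RPLP0, GRCh38.p14 chr12:120201062-120201361, minus strand: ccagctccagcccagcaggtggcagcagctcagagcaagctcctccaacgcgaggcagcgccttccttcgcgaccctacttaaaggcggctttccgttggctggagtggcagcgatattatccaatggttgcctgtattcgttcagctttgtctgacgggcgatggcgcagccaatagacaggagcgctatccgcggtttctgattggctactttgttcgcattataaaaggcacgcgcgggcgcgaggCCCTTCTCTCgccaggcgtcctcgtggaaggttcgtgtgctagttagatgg
In RPL13, RPL26, RPS19 and RPLP0 the start base was a C inside an unbroken pyrimidine run of 10, 14, 13 and 10 bases. RPS15 began with a C that ended a run of 2, and RPL10A began with an A, so neither had a TOP tract by the letters at its annotated start.

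The TOP letters set the listed genes apart from other genes at the level of sequence. Of the 44 genes with a promoter window, 32 had at least 1 start with a C followed by at least 4 pyrimidines (72.7%), against 987 of 15812 protein-coding genes (6.24%). They were in 6 of the 8 genes with a start near a summit of each library (75%) and in 18 of 23 genes with no peak in either library (78.3%). Other motifs were searched on both strands in the same windows, and a gene counted once for any of its starts. The letters TAAACA, the core of many forkhead sites, were in 2 of 44 genes (4.55%), RPL15 and RPL6, against 12.1% of all genes. They were in none of the 8 genes and in none of the 23 with no peak. Most summits near a start of the listed genes lay downstream of the end of these windows.

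Letters of ETS factor sites, CGGAAG, were in 26 of 44 genes (59.1%), against 29.7% of all genes. They were in 2 of the 8 genes with a start near a summit of each library and in 16 of the 23 with no peak. The SP/KLF box GGGCGG was in 26 of 44 (59.1%, against 64.2%) and CCAAT in 18 (40.9%, against 42.1%). TATAAA was in 5 (11.4%, against 12.4%), AAGATGG, the core of YY1 sites, in 5 (11.4%, against 7.90%), the E-box CACGTG in 3 (6.82%, against 10.9%) and TTTGAA, a variant of the cell cycle homology region, in 6 (13.6%, against 15.8%). All 6 genes with TTTGAA were among the 23 with no peak. TATAAA and TAAACA can share letters, as can CGGAAG and AAGATGG. The median GC content of the windows was 62.5% in the 8 genes, 57% in the 23 genes without a peak and 59.3% in all 44. Over all protein-coding genes it was 62.3%, and over the 3542 called at a start in both libraries it was 70.3%.

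**Figure D2:**
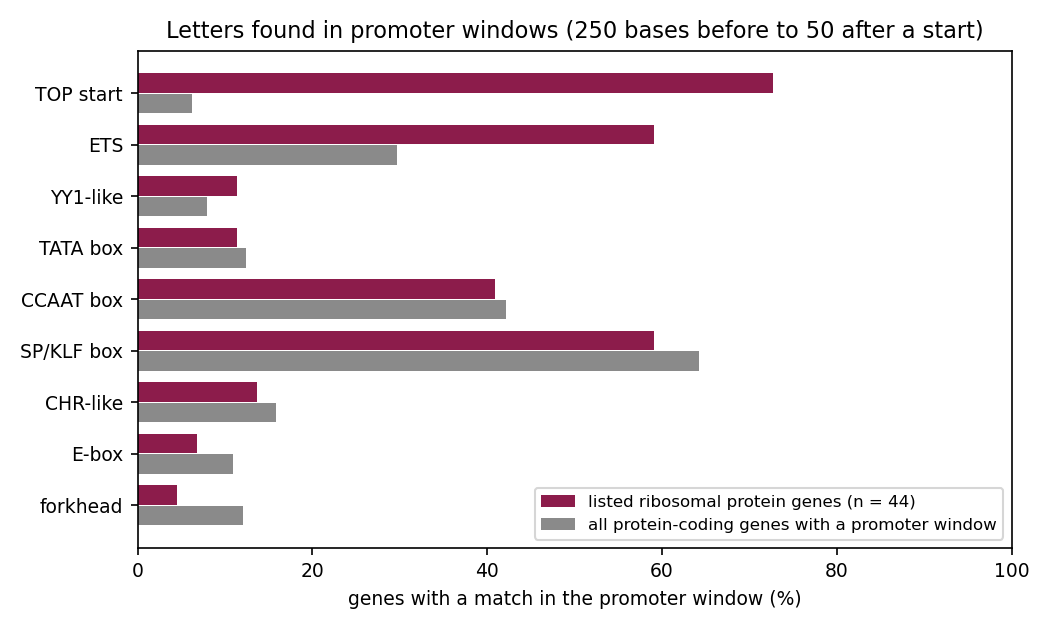
Share of genes (x axis, percent) with each set of letters in a promoter window, for the 44 listed ribosomal protein genes with a window and all 15812 protein-coding genes with one. The TOP start stands at 72.7% against 6.24% and the ETS letters at 59.1% against 29.7%, while the forkhead letters stand at 4.55% against 12.1%.

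Among large-subunit genes 9 of 32 were called in both libraries (28.1%, exact 95% interval 13.7 to 46.7), against 25.5% of all protein-coding genes. RPL13 led them by the smaller of its folds (chromosome 16, 89560657 to 89566829). Fold enrichment is the authors' linear ratio of the summit over the local background, and the labels do not state which library supplied that background. It was 4.67 in replicate 2 and 4.89 in replicate 3 at its highest peaks. The replicate 2 peak lay 150 bp downstream of the start printed above and was 718 bp wide, and replicate 3 had separate peaks at 104 and 491 bp, of fold 4.40 and 4.89. The summits thus lay beyond the printed window, in the first part of the gene. Replicate 2 had a further peak of fold 3.42 near the other end, 5095 bp downstream, and replicate 3 had no peak called there. RPL13 was among the 2 listed genes with −log10 q of at least 5 in both libraries (6.47 in replicate 2 and 6.46 in replicate 3).

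RPL26, known also as a regulator of p53 translation, had its peaks upstream of the gene (chromosome 17, 8377516 to 8383193). Its fold was 4.26 in replicate 2 and 4.10 in replicate 3, on 26 and 22 rebuilt fragments. The summits lay 659 and 538 bp before the printed start, 121 bp apart, and the peaks did not overlap. RPL10A, a protein of the mobile stalk at which deacylated transfer RNA leaves, had fold 3.76 in replicate 2, against 4.69 and 4.54 at 2 peaks of replicate 3 (chromosome 6, 35468401 to 35470780). The peaks 87 and 97 bp downstream of its start stood 10 bp apart between libraries, and the third lay 141 bp upstream.

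RPL8, which lies close to the peptidyl transferase centre, had fold 3.78 in replicate 2 and 4.17 in replicate 3 (chromosome 8, 144789769 to 144792390). Its summits were 4 bp apart, 94 and 90 bp inside the end of higher coordinate, and strand was not given for this gene. RPL14 had the closest summits of all, 2 bp apart at 147 and 149 bp downstream of its start, with fold 3.45 and 3.63 and 29 rebuilt fragments in each library (chromosome 3, 40457339 to 40468587). RPL7A, a host gene of small nucleolar RNAs, had 3 peaks in each library, of fold 3.20, 3.05 and 3.41 in replicate 2 and 2.73, 3.21 and 2.73 in replicate 3 (chromosome 9, 133348218 to 133351426). They ran from 823 bp before to 380 bp after its start, and all 6 also lay within 1 kb of MED22, a gene of the Mediator complex.

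Peaks at RPL6 and RPL7 were shared with neighbours as well. RPL6 had fold 2.79 and 3.49, the lowest of the 13 genes by the lower value (chromosome 12, 112405181 to 112418835). Its summits stood 25 and 3 bp inside the upstream end of the gene record, on the minus strand. They were at −7368 and −7390 bp from the nearest annotated start in the promoter table. Both lay within 1 kb of PTPN11, which encodes the phosphatase SHP-2. RPL7 had fold 3.46 and 3.88 in replicate 2 and 4.11 and 3.94 in replicate 3 (chromosome 8, 73290242 to 73294466), spread from 174 bp inside its end of higher coordinate to 989 bp outside it. All 4 peaks lay within 1 kb of RDH10, a retinol dehydrogenase gene. The assignment of these peaks to either neighbour was not tested.

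The stalk of the large subunit recruits elongation factors. Of its 4 listed genes, RPLP0, the stalk base, was called in both libraries, with fold 3.77 in replicate 2 and 3.57 in replicate 3 (chromosome 12, 120196699 to 120201111). The peaks did not overlap: replicate 2 had its summit 147 bp downstream of the printed start and replicate 3 had its own 508 bp upstream, on 16 rebuilt fragments and with −log10 q of 2.01. RPLP2 had a peak in replicate 3 alone (fold 3.57, −log10 q of 2.01, 417 bp downstream, shared with the p53-induced gene PIDD1). RPLP1 and RPL12 had none in either library.

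Small-subunit genes were called in both libraries in 4 of 20 cases (20.0%, exact 95% interval 5.73 to 43.7), against 25.5% of all protein-coding genes. RPS18, at a contact between the subunits, had the highest fold of any listed gene in replicate 2, 6.31 (chromosome 6, 33272075 to 33276511). In replicate 3 its fold was 4.74 with −log10 q of 4.68, and RPL13 had a higher fold there, 4.89. The RPS18 peaks were not at its start. Their summits lay 5029 and 5290 bp downstream of it, 593 and 854 bp past the far end of the gene. Both lay within 1 kb of B3GALT4, a galactosyltransferase gene. The value of replicate 2 stood at the 99.5th percentile of that library's peaks by fold and rested on 36 rebuilt fragments (exact 95% Poisson interval 25.2 to 49.8) over a background of 4. In replicate 3 it was 20 fragments (12.2 to 30.9) over 2.88, at the 87.9th percentile.

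RPS15, whose tail reaches the decoding site, had fold 5.12 in replicate 2 and 4.08 in replicate 3 at its start (chromosome 19, 1438396 to 1440495). The summits lay 105 and 91 bp downstream of the printed start, and replicate 3 had a further peak at 543 bp of fold 3.75. RPS19, the gene most often mutated in Diamond-Blackfan anaemia, an inherited red cell aplasia, had fold 5.01 and 3.87 (chromosome 19, 41860255 to 41872925). Its summits lay 86 and 246 bp downstream of the printed start, the first of them upstream of the gene's other annotated start, and it was the second gene with −log10 q of at least 5 in both libraries (7.48 and 5.30). RPS20 had fold 4.92 and 4.02 (chromosome 8, 56067254 to 56074506), with summits 138 bp inside and 134 bp outside its end of higher coordinate and an overlap of 34 bp.

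**Figure D3:**
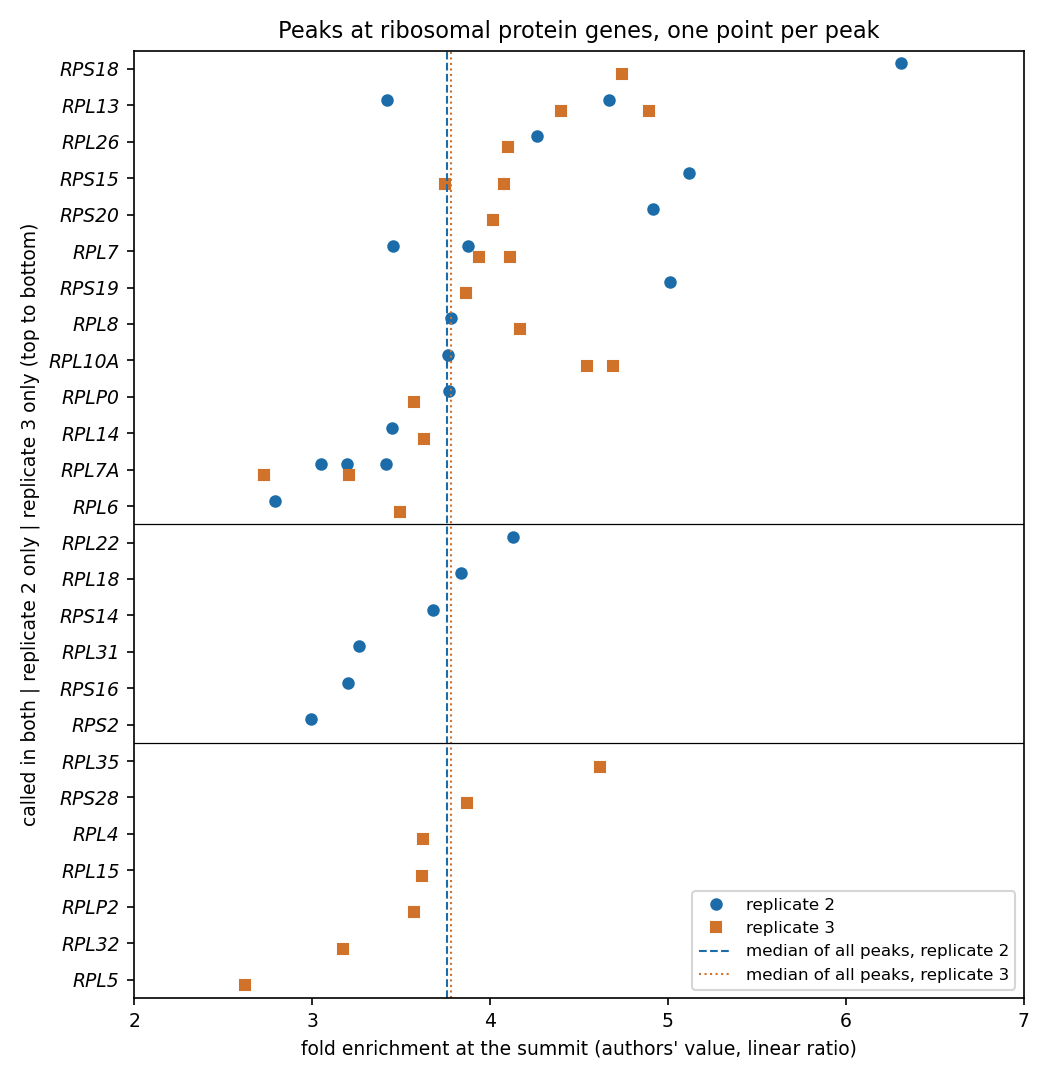
Fold enrichment at the summit (x axis, linear ratio, the authors' value) of each of the 49 peaks at the 26 ribosomal protein genes with a peak (y axis), with replicate 2 as circles and replicate 3 as squares and lines at the median of all peaks of each library. The points of 13 genes carry both symbols, from RPS18 at 6.31 and 4.74 down to RPL6 at 2.79 and 3.49, on both sides of the medians of 3.76 and 3.78.

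The 13 genes formed a continuous order by the mean log2 fold of their libraries, from 2.45 for RPS18 to 1.64 for RPL6. Over the 5097 protein-coding genes called in both libraries, log2 fold of replicate 2 over replicate 3 had an SD of 0.31, which gives the difference between the means of a pair of genes an SD of 0.22. None of the 12 gaps between neighbours in the order exceeded this, the largest being 0.19 between RPS18 and RPL13, so neighbours could not be told apart. The whole range was 0.81. Sorting alone brings neighbours close and sets the ends of 13 values apart, so these comparisons cannot show which genes truly differ. The libraries differed by a median of 0.14 (log2, without sign) over the 13 genes, against 0.20 over all called genes, and 7 of the 13 were higher in replicate 2 and 6 in replicate 3.

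The strength of peaks at the listed genes was close to that of all peaks. Median fold was 3.76 over the 23 peaks of replicate 2, against 3.76 over all of its peaks, and 3.87 over the 26 of replicate 3, against 3.78. The peaks above the library's median numbered 12 of 23 and 14 of 26. Over genes called in both libraries, the median of the lower fold was 3.87 for the 13 listed genes, against 3.70 for all 5097. The highest −log10 q was 11.2 in replicate 2, at RPS18, and 7.47 in replicate 3, at RPL35, against 40.3 and 36.8 over all peaks. Rebuilt fragments ran from 19 to 36 in replicate 2 and from 16 to 34 in replicate 3, over local backgrounds of 3 to 10.0 and of 2.88 to 7.81.

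**Figure D4:**
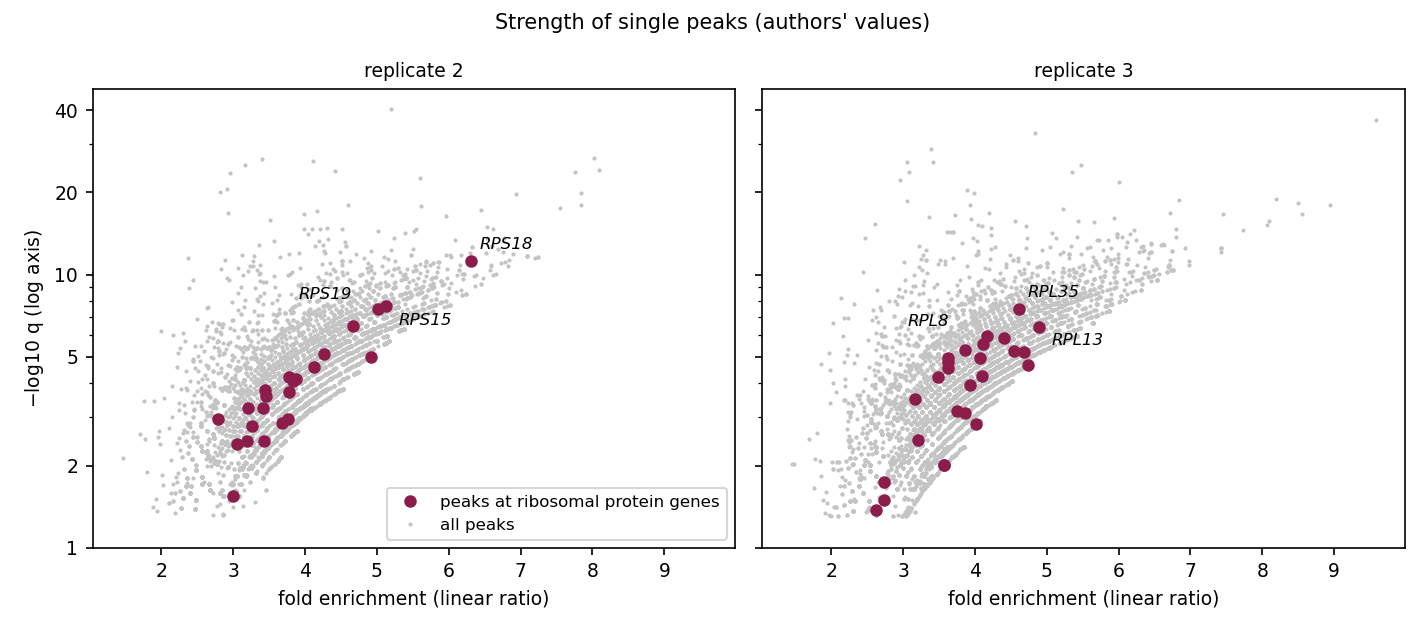
Fold enrichment (x axis, linear ratio) against −log10 q (y axis, log axis) of peaks at ribosomal protein genes (large points) and of all peaks (small points) in replicate 2 (left) and replicate 3 (right), with the 3 member peaks of highest −log10 q named. The member peaks lie within the main body of each list, with medians of fold of 3.76 and 3.87 against 3.76 and 3.78.

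Summits within 1 kb of a start lay downstream of it in 11 of 15 peaks in replicate 2 (73.3%, against 59.6% at all protein-coding genes) and in 13 of 17 in replicate 3 (76.5%, against 58.6%). Of the 15 member peaks of replicate 2 within 1 kb of a start, 11 had their summit 1 to 200 bp downstream of the nearest one (73.3%), against 30.8% of 5374 such peaks at all protein-coding genes. In replicate 3 it was 8 of 17 (47.1%), against 29.03% of 7151. In these counts a peak near starts of several genes was counted once for each gene. The median position was 99 bp downstream in replicate 2 and 97 bp in replicate 3, against 68 and 55 bp over all genes. Peaks of the same gene are not independent, and RPL7A alone gave 3 in each library. Exon and intron borders were not used here.

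**Figure D5:**
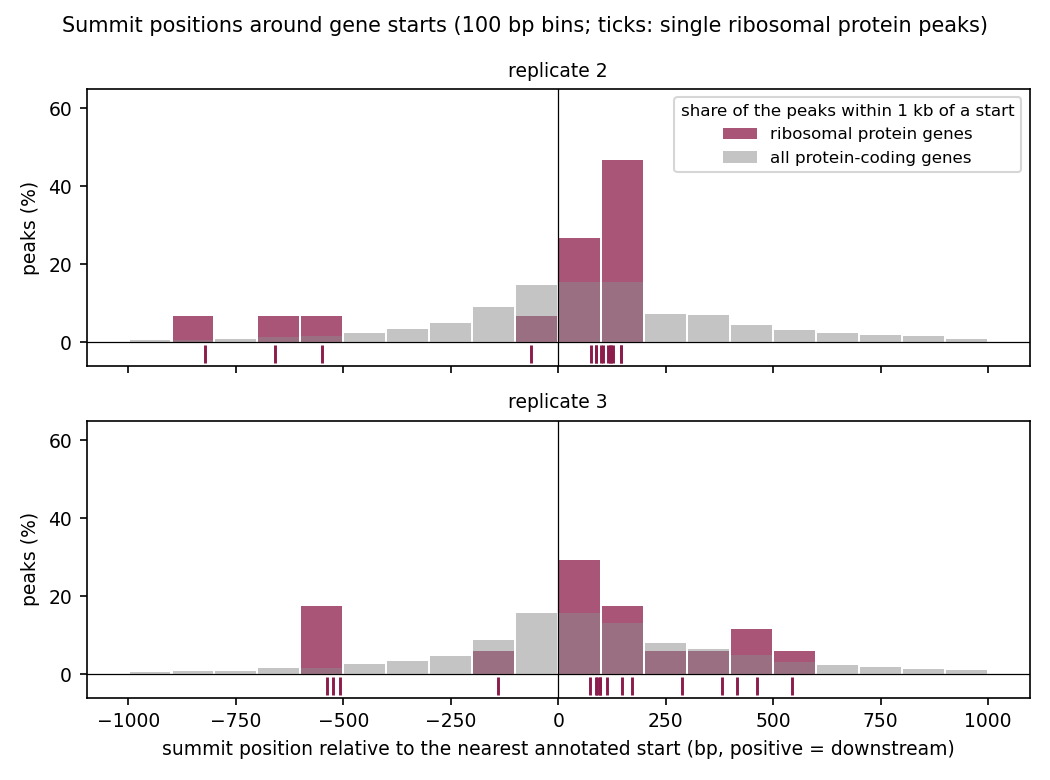
Distribution of summit positions relative to the nearest annotated start (x axis, bp, positive is downstream; y axis, percent of peaks in bins of 100 bp) for ribosomal protein genes and all protein-coding genes, in replicate 2 (top) and replicate 3 (bottom), with ticks at single member peaks. The member medians are 99 and 97 bp downstream, and 11 of 15 and 8 of 17 ticks lie between 1 and 200 bp.

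Of the 6 genes called in replicate 2 alone, 5 had their summit 77 to 128 bp downstream of the start. RPL22, a gene with recurrent frameshift mutations in tumours with microsatellite instability, had the highest fold, 4.13 (−log10 q of 4.59, 87 bp downstream). RPL18 had fold 3.84 (−log10 q of 4.08, 128 bp downstream), within 1 kb of the sphingosine kinase gene SPHK2. RPS14, whose loss on chromosome 5 is linked to a myelodysplastic syndrome, had 3.68 (−log10 q of 2.86, 77 bp downstream). RPL31, at the exit of the peptide tunnel, had 3.26 (−log10 q of 2.80, 116 bp downstream), and RPS16, whose tail reaches the transfer RNA of the decoding site, had 3.20 (−log10 q of 3.25, 99 bp downstream). RPS2, at the entry of the messenger RNA channel, had 2.99 just outside one end of the gene. Its −log10 q was 1.54, close to the minimum of 1.32 over the list of replicate 2.

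Of the 7 genes called in replicate 3 alone, 6 had their peak within 1 kb of another protein-coding gene (85.7%), against 27.5% of the 2521 protein-coding genes called in that library alone. In replicate 2 this held for 1 of 6, against 27.5% of 953. These shares were not matched for gene length. The 6 were RPL35 with ARPC5L, RPS28 with KANK3, RPL4 with SNAPC5, RPL15 with NKIRAS1, RPLP2 with PIDD1 and RPL5 with DIPK1A. RPL32 did not (fold 3.17, −log10 q of 3.50, 287 bp downstream of a start). RPL35, on the rim of the peptide tunnel, had fold 4.62 on 34 rebuilt fragments, with −log10 q of 7.47 and the summit 172 bp downstream of its own start and 345 bp from that of ARPC5L. At RPL4, whose protein lines the tunnel, fold was 3.63 with −log10 q of 4.77. The summit lay 79 bp from the start of SNAPC5 and 7014 bp from that of RPL4. RPS28, near the exit of the messenger RNA channel, had 3.87 (−log10 q of 3.11, 910 bp outside the gene), and RPL15 had 3.62 (−log10 q of 4.97, 113 bp downstream of a start). RPL5, which with RPL11 binds the p53 regulator MDM2, had 2.62 with −log10 q of 1.38, the lowest of both among the 49 peaks. A gene missing from a list had no summit there that passed a threshold near q of 0.05, and weaker enrichment was not detectable.

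Across the 26 genes with a peak, 11 had at least 1 within 1 kb of another protein-coding gene, and this held for 8 of 23 peaks in replicate 2 (34.8%) and 13 of 26 in replicate 3 (50%), against 14.1% of 7372 and of 10038 peaks at all protein-coding genes. Of those at the listed genes, RPL7 gave 2 and RPL7A gave 3 in each library. The shares were not matched for gene length, and the listed genes are shorter (median 5342.5 bp, against 24170.5 bp). The share over all genes counted each peak once, although a peak near several genes can be reached through each of them. Counted through genes, as peaks of a gene list are, the share over all genes would be higher than 14.1%, so the gap is overstated. Of the 13 genes called in both libraries, 9 had no peak within 1 kb of another protein-coding gene. With such peaks left out, 15 of 52 genes were called in at least 1 library (28.8%), against 33.3% of all protein-coding genes under the same rule, and 9 in both (17.3%, against 19.5%). This alternative was added after seeing the data. Noncoding genes were not counted in these shares. Peaks at RPL8 (MIR6850), RPLP0 (PXN-AS1), RPS20 (SNORD54 and CERNA3) and RPS2 (SNHG9 and SNORA78), among others, lay within 1 kb of such genes.

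The 26 genes without a peak in either library were RPL3, RPL9, RPL11, RPL12, RPL19, RPL23, RPL24, RPL27, RPL28, RPL30, RPL34, RPL37, RPL38, RPLP1, RPS3, RPS6, RPS7, RPS9, RPS10, RPS12, RPS13, RPS23, RPS24, RPS25, RPS27A and RPSA. They include RPS6, the classic substrate of S6 kinase, RPL3 of the peptidyl transferase centre, RPS3, which has a role in DNA repair, and RPS27A, made as a fusion with ubiquitin. At the limit of the rule, RPL7 had a summit 989 bp outside the gene (replicate 2, fold 3.88) and RPS28 at 910 bp (replicate 3, fold 3.87). RPL28 lay beyond it, with summits 1607 bp (replicate 2, fold 3.17) and 1776 bp (replicate 3, fold 4.22) outside. RPLP0 had stronger peaks beyond the limit, at 1971 bp (fold 4.91) and 2004 bp (fold 6.43), than within it.

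By role, Diamond-Blackfan anaemia genes were called in both libraries in 3 of 14 cases (21.4%, exact 95% interval 4.66 to 50.8): RPS19, RPS15 and RPL26. In at least 1 library it was 9 of 14 (64.3%, 35.1 to 87.2). The shares of all protein-coding genes were 25.5% and 42.9%. A list of RPS2, RPS3, RPS9, RPS10, RPS20 and RPSA, some of the proteins of the messenger RNA channel and of the head or body of the small subunit, had RPS20 as the 1 member called in both. Of RPL5 and RPL11, neither was. Ribosomal protein genes that were not among the 52, with their paralogs, were a separate list of 36, of which 35 lie on chromosomes 1 to 22 and X. Of these 1 was called in both libraries (2.86%, exact 95% interval 0.0723 to 14.9), against 25% of the 52 listed genes, and 12 in at least 1 (34.3%). The exception was RPL36, with fold 3.05 in replicate 2 and 4.81 in replicate 3. Both lists together gave 16.1% with an exact 95% interval of 9.09 to 25.5. The difference between the lists was not tested.

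Genes around the ribosome were counted by the same rule. Of 46 genes of ribosome assembly and RNA polymerase I, 8 were called in both libraries (17.4%, exact 95% interval 7.82 to 31.4), against 25.5% of all protein-coding genes. They were led by UBTF, the polymerase I factor (4.37 in replicate 2 and 4.72 in replicate 3), UTP4, of the small-subunit processome (4.31 and 5.01), NOP56, a core protein of small nucleolar ribonucleoproteins (4.16 and 4.18), and NCL, which encodes nucleolin (3.59 and 5.07). Of 42 translation factor genes 16 were (38.1%, exact 95% interval 23.6 to 54.4), and this interval too covered 25.5%. The top 4 by the smaller fold were EIF4A1, the cap-complex helicase (5.54 and 5.19), EIF1, a factor of start codon selection (4.91 and 5.61), EIF3G, a subunit of eIF3 (4.53 and 4.54) and EIF4G1, the cap-complex scaffold (4.10 and 4.70). Differences among these lists were not tested.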

How the data were processed

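Occupancy was measured by ChIP-seq in 2 anti-FOXM1 libraries of untreated Huh7 cells, with 1 input library. The tools named per the submitters' processing notes were MACS2 2.2.7.1, BWA and CASAVA 1.4, and the build was GRCh38, without roles or order. How reads were filtered is not given in the sources used here. Every library had its own deposited peak list with a fold (ratio over the local background), a −log10 p, a −log10 q, a score (10 times −log10 q, cut to a whole number, unused) and a summit offset of another unit, in bp. The deposited summit files differed from the peak lists at 0 positions.

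Members and lists were chosen with earlier results of these data known. All 176 list symbols matched the RefSeq gene table. Strand and starts came from its promoter table, which lacked 8 of the 52 genes. No test was run, since 2 libraries of 1 group allow none across genes, so counts stand beside all protein-coding genes, with exact Clopper-Pearson 95% intervals. Members called in both libraries are given in full, others more briefly. Shares of peaks near another gene were added after seeing the data. Fragment counts and backgrounds were rebuilt, also then: fold was read as scaled count plus 1 over background plus 1 and p as a Poisson upper tail, and 100% of peaks fell within 0.001 of the deposited −log10 p, with scales of 0.848 and 0.869. Total read counts were not used here, and PCR copies make intervals cover counting error only. Scripts, run with Python 3.11.15, numpy 2.4.6, pandas 2.3.3, SciPy 1.17.1 and matplotlib 3.10.9, were tested on simulated data.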

Additional observations from a re-analysis of the deposited data

How the results depend on the processing

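The share of listed genes called in both libraries, 25%, was 3.85% with −log10 q of at least 5, 9.62% with fold of at least 4, 13.5% with summits within 100 bp and 16.1% over both lists of ribosomal protein genes, a choice added after seeing the data. The share in at least 1 library, 50%, was 17.3% and 21.2% under those thresholds and 28.8% without peaks near another protein-coding gene, also added then. At gene starts in both libraries, 18.2% became 4.55% and 6.82% under the thresholds and 11.4% with summits within 100 bp. All protein-coding genes moved with these settings, to 6.37%, 8.74% and 13.7% for the first share. For at least 1 library they moved to 19.1% and 23.7% under the thresholds and 33.3% without peaks near another protein-coding gene. At starts in both libraries they moved to 5.42%, 6.95% and 11.8%. With a library left out, the share in both became 36.5% to 38.5% (38.5% without replicate 2), that in at least 1 library ran over the same values, and that at starts ran from 27.3% to 29.5%. Median fold, 3.82 as the mean of the medians of the libraries, ran from 3.76 to 3.87 with a library left out. It was 4.74 with −log10 q of at least 5. All peaks moved in the same way, from 3.77 to 4.56 under that threshold. In other units, again as means of the library medians, −log10 q was 4.06, against 3.82 over all peaks. The rebuilt fragment count was 25.25, the same as over all peaks, the count being a choice added after seeing the data. The other alternatives moved the shares by less than 1.5 times, and the background of short genes left the share itself as it was by construction. No paired analysis was possible because the results are descriptions of 1 group. Summits of 16 to 36 fragments limit the detection of weak peaks.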

Other observations

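Ribosomal protein genes have many processed pseudogenes, and reads from their exons can fit several places. Of 1127 pseudogene records named after the 52 genes, none had a summit inside in both libraries and 0.266% had one in at least 1, against 0.498% and 1.41% of all 16664 pseudogene records. The exceptions in single libraries were RPLP0P2 in replicate 2, and RPSAP52, beside HMGA2, and RPL13P13 in replicate 3. The shares were not matched for the length of the pseudogene records. Genes called in both libraries had a median of 13 such pseudogenes (5 to 80), and genes without a peak had 14 (4 to 74). Whether reads at the genes map to 1 place alone was not examined.

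Small nucleolar RNA genes lay inside 18 of the 52 genes. They lay in 3 of the 13 genes called in both libraries, in 1 of the 6 called in replicate 2 alone and in 4 of the 7 called in replicate 3 alone. Among the 26 genes without a peak they lay in 10. The listed genes stood on 16 chromosomes. Called in both libraries were 3 of 4 on chromosome 8 (RPL7, RPL8 and RPS20), against 29.1% of all genes there, both of those on chromosome 12 (RPL6 and RPLP0), against 24.7%, and 2 of 4 on chromosome 6 (RPL10A and RPS18), against 22.2%. On chromosome 19 it was 2 of 7 (RPS15 and RPS19), against 26.7%, on chromosome 17 1 of 5 (RPL26), against 28.1%, and on chromosome 11 none of 4, against 21.7%. The other chromosomes had 0 or 1 such gene each.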
